A study of Mus musculus with 2 samples.

Results

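Cells that burn fuel in mitochondria also make superoxide and hydrogen peroxide, and a set of enzymes removes them. The genes described here encode 10 such enzymes, chosen by name: the superoxide dismutases Sod1, Sod2 and Sod3, catalase (Cat), the glutathione peroxidases Gpx1, Gpx3 and Gpx4, the mitochondrial peroxiredoxins Prdx3 and Prdx5, and the mitochondrial thioredoxin reductase Txnrd2. Every spot named after them in the array files was taken, on both arrays. No spot carried the name Cat. The other 9 genes, of 38354 distinct gene names in the files, had 10 probes on 19 spots, out of 41174 probes on 41534 spots. Of these 10 probes, 9 passed the filter on low signals: the same genotype stood well above background (by 2.6 background SDs in the scanner software) on each array, as did 32424 of the 40979 probes with a value on both arrays. They are called measured below. A search of the probe annotations for the same genes under other names found 5 more probes, Cat among them, which are given separately.

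The samples were interscapular brown adipose tissue, the fat depot that makes heat, from double-knockout mice (DKO) and wild-type mice (WT). DKO mice lack 2 nuclear receptor genes, Rora (RORa-/-) among them, and WT mice carry both. The labels name 4 male C57BL/6 mice per genotype, 2 to 3 months old in one place and 8 to 12 weeks in another, with tissue taken near circadian time 20. DKO and WT RNA were hybridised together on each of 2 Agilent whole mouse genome arrays. DKO was in Cy5 and WT in Cy3 on the first, called the DKO-Cy5 array, and the dyes were reversed on the second, called the DKO-Cy3 array. The labels do not say whether the RNA of the mice was pooled or whether the arrays held different extracts, so each genotype counted as 1 replicate and no test between genotypes was possible.

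Superoxide dismutases turn superoxide into hydrogen peroxide, Sod1 in the cytosol with copper and zinc, Sod2 in the mitochondrial matrix with manganese, and Sod3 outside the cell. Catalase in peroxisomes, glutathione peroxidases and peroxiredoxins then reduce the peroxide. Txnrd2 keeps the mitochondrial thioredoxin that recycles Prdx3 reduced. Gpx1, Gpx3, Gpx4 and Txnrd2 carry selenocysteine. RORs are nuclear receptors that bind DNA as monomers at the motif AGGTCA with A or T bases before it. They are best known for their part in the clock and in lipid metabolism.

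The upstream sequences of the 3 member genes whose window directly before a single annotated start holds AGGTCA are shown because that motif is the core that RORs bind. Each is the 250 bases before the RefSeq start on assembly GRCm38.p6, written 5′ to 3′ on the gene's strand, with capitals on AGGTCA. They lie at chr2:103485154-103485403 on the minus strand for Cat, chr19:60874539-60874788 on the minus strand for Prdx3, and chr16:18426167-18426416 on the plus strand for Txnrd2.
Cat: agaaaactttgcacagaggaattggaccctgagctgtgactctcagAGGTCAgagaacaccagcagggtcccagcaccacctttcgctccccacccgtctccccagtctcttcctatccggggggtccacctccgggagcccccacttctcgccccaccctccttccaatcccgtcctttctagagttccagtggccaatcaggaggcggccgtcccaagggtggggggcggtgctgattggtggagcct
Prdx3: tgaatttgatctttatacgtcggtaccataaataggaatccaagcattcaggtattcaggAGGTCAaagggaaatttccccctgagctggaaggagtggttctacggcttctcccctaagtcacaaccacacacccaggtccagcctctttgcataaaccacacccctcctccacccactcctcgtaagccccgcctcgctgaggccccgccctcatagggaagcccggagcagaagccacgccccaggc
Txnrd2: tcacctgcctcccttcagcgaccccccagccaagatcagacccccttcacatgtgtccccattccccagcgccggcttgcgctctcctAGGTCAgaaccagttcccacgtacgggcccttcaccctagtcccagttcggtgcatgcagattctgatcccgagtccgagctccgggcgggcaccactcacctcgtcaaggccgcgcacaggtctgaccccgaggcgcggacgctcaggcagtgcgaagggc

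The motif begins at position -204 from the start in Cat, at -190 in Prdx3 and at -162 in Txnrd2, in each case on the gene's own strand. RefSeq windows were at hand for 9 of the 10 member genes, 12 windows in all since Gpx4 has several starts. AGGTCA, searched on both strands, was in 4 of the 12, the remaining one being the window of a downstream Gpx4 start, where it lay on the opposite strand at -68. Over all 32851 RefSeq windows of this length, 14% held it. With a T before it (TAGGTCA, a subset of the same matches) it was in the Txnrd2 window alone among the members, against 2.23% of all windows. The motif TGACNNNGC, the core of the antioxidant response element that NRF2 binds, was in the Sod1 window alone, on the opposite strand at -56, against 10.2% of all windows. A match is a description of these letters and shows no binding.

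Across the arrays, 77.6% to 85.4% of spots were well above background in each channel, and the median signal was 107 to 130 units over local backgrounds of 57 to 72. The ratios of DKO over WT on the 2 arrays had a Pearson r of -0.02 across the 32424 measured probes, and of 0.10 across the 3218 with a mean log2 intensity of 9 or more, called bright below; probes are not independent replicates. Rora itself was read by 2 probes whose place relative to the deleted part is not given. The brighter had signals of 102 and 86.1 units in DKO on the DKO-Cy5 and DKO-Cy3 arrays, against 118 and 111 in WT, a log2 ratio of -0.38 ± 0.04. The other had 78.7 and 78.8 units in DKO, against 104 and 102 in WT, a log2 ratio of -0.47 ± 0.10. The offset used in background correction draws the ratios of such dim probes toward 0, and in the scanner software's ratios, which have no offset, these probes were at -0.96 ± 0.07 and -1.52 ± 0.14. Both probes were lower in DKO, the genotype labelled as lacking the gene, on both arrays. All log2 ratios here are DKO over WT, as the mean ± SD of the 2 arrays after background correction and loess normalisation. That SD holds dye bias and measurement error and not the spread between mice.

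No member gene met the rule for a call, which asked for a mean of at least 2-fold with each array at least 1.5-fold the same way. The rule called 0 of the 9 measured member probes. Of all measured probes it called 32 higher in DKO, 0.0987%, and 7 lower, 0.0216%. A looser rule, a mean of 1.5-fold with each array at least 1.2-fold, also called 0 members, against 0.336% of measured probes higher and 0.234% lower. In this processing neither rule called the dim Rora probes, with mean log2 ratios of -0.38 and -0.47. For probes as dim as those named Sod1 and Sod3, the lack of a call thus says little. None of the 19 member spots was flagged as saturated or as an outlier on either array. At such shares of called probes, a count of 0 among 9 does not set the members apart.

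**Figure D1:**
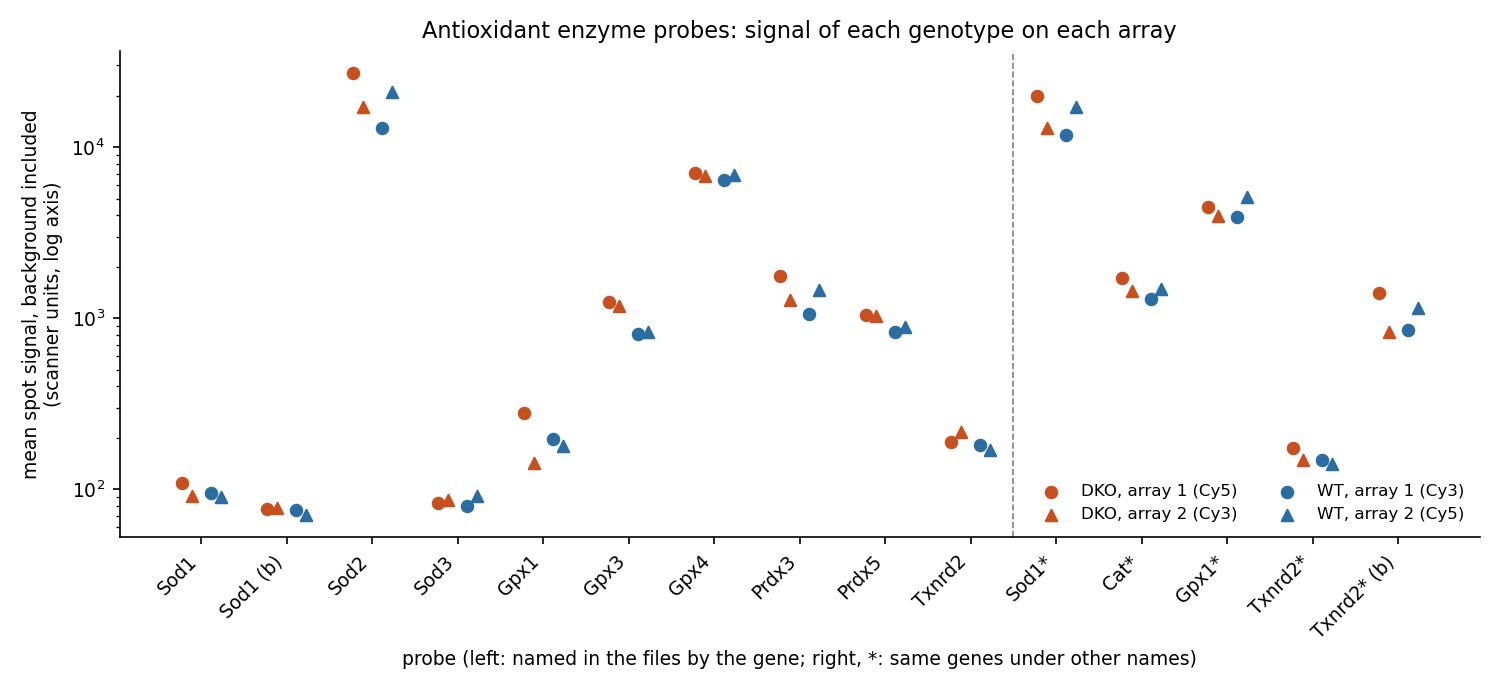
Mean spot signal in scanner units on a log axis for each probe, with DKO (orange) left of WT (blue), circles for the DKO-Cy5 array and triangles for the DKO-Cy3 array; Sod1 is the mean of 10 spots. Among measured members both DKO points lie above both WT points for Gpx3 (1242 and 1177 units, against 813 and 835), Prdx5 and Txnrd2, as they do for 14.3% of all measured probes, and the genotypes overlap for the rest.

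Gpx3, the glutathione peroxidase secreted into plasma and made by adipose tissue as well as kidney, had the highest mean ratio of the members. Its probe read 1242 units in DKO on the DKO-Cy5 array and 1177 on the DKO-Cy3 array, against 813 and 835 in WT. Both DKO signals lay above both WT signals before normalisation, which also held for Prdx5 and Txnrd2, 3 of 9 measured members against 14.3% of all measured probes. The opposite, both DKO signals below both WT signals, held for 0 members and 1.23% of probes, so this count leaned toward DKO over all measured probes. The median spot signal was 130 units in DKO against 113 in WT on the DKO-Cy5 array, and 107 against 108 on the DKO-Cy3 array. After normalisation, the log2 ratio of Gpx3 was -0.0028 on the DKO-Cy5 array and 0.83 on the DKO-Cy3 array, a mean of 0.41 ± 0.59, or 1.33-fold. The mean exceeded that of 99.2% of measured probes, but it came from the DKO-Cy3 array, where the ratio was 1.77-fold, and the SD was larger than the mean. Of all measured probes, 1.11% were at least 1.5-fold higher in DKO on that array, with Gpx3 the only member among them. On the DKO-Cy5 array 0.438% were, and no member was.

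Sod2, the manganese dismutase of the mitochondrial matrix, was above 0 on both arrays, with almost all of its difference on the DKO-Cy5 array. Its signals were 27165 and 17050 units in DKO on the DKO-Cy5 and DKO-Cy3 arrays, against 12917 and 21028 in WT. The genotypes overlapped: in each genotype the Cy5 signal was the larger. The log2 ratio was 0.41 on the DKO-Cy5 array and 0.04 on the DKO-Cy3 array, a mean of 0.22 ± 0.26. These signals lay below the level at which spots saturated, at 65146 units and above.

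Prdx3, the peroxiredoxin that removes most of the hydrogen peroxide of the matrix, was the member on which the arrays were closest. It read 1774 and 1275 units in DKO, against 1061 and 1467 in WT, and here too the larger signal of each genotype was in Cy5. The log2 ratio was 0.12 on the DKO-Cy5 array and 0.13 on the DKO-Cy3 array, a mean of 0.12 ± 0.01, or 1.09-fold. In the scanner software's ratios Prdx3 was 0.14 ± 0.16 and 0.11 ± 0.16, where ± is the software's error of that ratio. The SD of the 2 arrays is thus far smaller than the measurement error of either, and neither ratio exceeded its error. Prdx3 and Sod2 were the 2 members of 9 above 0 on both arrays, against 19.5% of all measured probes. Gpx3 fell short only by its -0.0028 on the DKO-Cy5 array. No member was below 0 on both, against 17.8%.

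Prdx5, a peroxiredoxin of mitochondria, peroxisomes and cytosol, and Txnrd2 went opposite ways on the 2 arrays. Prdx5 read 1038 and 1037 units in DKO, against 827 and 894 in WT, so that DKO was the higher before normalisation on each array. Its log2 ratio was -0.29 on the DKO-Cy5 array and 0.54 on the DKO-Cy3 array, a mean of 0.12 ± 0.59. Txnrd2 read 189 and 216 units in DKO, against 183 and 171 in WT, again with DKO the higher. After background correction and normalisation the log2 ratio of Txnrd2 was -0.34 on the DKO-Cy5 array and 0.50 on the DKO-Cy3 array, a mean of 0.08 ± 0.59. For these 4 mitochondrial members (Sod2, Prdx3, Prdx5 and Txnrd2) the median log2 ratio was 0.12, with 2 above 0 on both arrays and 2 of opposite sign.

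Gpx4, which reduces lipid hydroperoxides within membranes, showed the same split. Its signals were 7026 and 6778 units in DKO, against 6441 and 6885 in WT, with the genotypes overlapping. The log2 ratio was -0.52 on the DKO-Cy5 array and 0.32 on the DKO-Cy3 array, a mean of -0.10 ± 0.59. Gpx1, the cytosolic and mitochondrial enzyme, read 280 and 143 units in DKO, against 197 and 179 in WT. Both WT signals lay between the DKO signals. The log2 ratio of Gpx1 was 0.07 on the DKO-Cy5 array and -0.21 on the DKO-Cy3 array, a mean of -0.07 ± 0.20. All 4 selenoprotein members (Gpx1, Gpx3, Gpx4 and Txnrd2) were of opposite sign on the 2 arrays, Gpx3 only through -0.0028 on the DKO-Cy5 array. So were 3 of the 5 measured members without selenocysteine, and 62.7% of all measured probes. The median log2 ratio was 0.0046 for the selenoprotein members, against 0.12 for the 5 without selenocysteine.

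The probes named Sod1 and Sod3 were close to background and gave little resolution. Sod1 had a probe printed on 10 spots, which averaged 109 and 91.3 units in DKO, against 95.6 and 90.0 in WT, over local backgrounds of 57.2 to 71.9 units. Its log2 ratio was 0.06 on the DKO-Cy5 array and -0.02 on the DKO-Cy3 array, a mean of 0.02 ± 0.06. The spots show the error within an array. On the DKO-Cy5 array they ran from -0.24 to 0.23 (SD 0.13, n = 10 spots), with 8 of 10 above 0, and on the DKO-Cy3 array from -0.13 to 0.08 (SD 0.07, n = 10 spots), with 3 of 10 above 0. On each array the mean ratio was smaller in size than the SD of single spots, which is not the error of a mean over 10 spots. The other probe named Sod1 read 77.2 and 77.7 units in DKO, against 75.7 and 70.6 in WT, and was not well above background in either genotype on both arrays. Both probes are annotated from clones and not from the coding reference transcript.

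Sod3, the secreted dismutase, read 83.7 and 87.3 units in DKO, against 79.8 and 91.7 in WT, which was not well above background on the DKO-Cy5 array. Its log2 ratio was 0.09 on the DKO-Cy5 array and -0.14 on the DKO-Cy3 array, a mean of -0.03 ± 0.17. As for Rora, the offset draws these ratios toward 0. In the scanner software's ratios Sod3 was 0.36 ± 0.57 on the DKO-Cy5 array and -0.49 ± 0.37 on the DKO-Cy3 array, where ± is the software's error of that ratio.

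**Figure D2:**
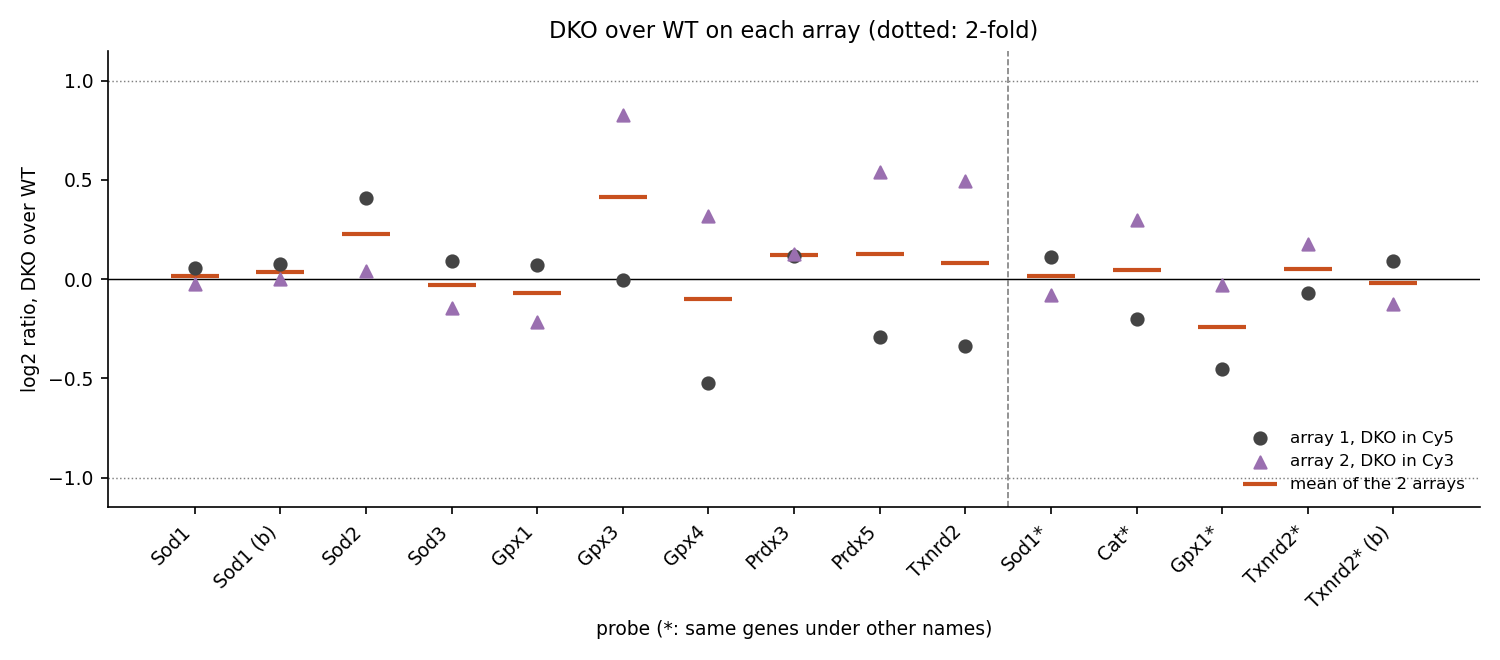
Log2 ratio of DKO over WT for each probe on the DKO-Cy5 array (circles) and the DKO-Cy3 array (triangles), with the mean as an orange bar and 2-fold as dotted lines. No point reaches 2-fold, Prdx3 has its points together at 0.12 and 0.13, and those of Gpx3, Gpx4, Prdx5 and Txnrd2 lie far apart.

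By mean log2 ratio the measured members ran from Gpx3 (0.41) through Sod2 (0.22), Prdx5 and Prdx3 (0.12 each), Txnrd2 (0.08), Sod1 (0.02), Sod3 (-0.03) and Gpx1 (-0.07) to Gpx4 (-0.10). Every pair of neighbours in this order differed by less than the larger of their SDs. The median was 0.08, against 0.0026 for all measured probes. The members' median SD between arrays was 0.26, against 0.09 for all measured probes. Among bright probes it was 0.59 for the 5 members (Sod2, Gpx3, Gpx4, Prdx3 and Prdx5), against 0.17 for all 3218.

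The 2 arrays placed the genotypes in opposite order for 7 of the 9 measured members, against 62.7% of all measured probes. Gpx3 was among the 7 only through its ratio of -0.0028 on the DKO-Cy5 array. When the normalised ratio of DKO over WT is above 0 with DKO in Cy3 and below 0 with DKO in Cy5, Cy3 is the higher dye on both arrays after normalisation. The unnormalised signals need not follow this: those of Gpx4 were higher in Cy5 on both arrays, at 7026 against 6441 units and 6885 against 6778. The mean log2 ratio of Cy5 over Cy3, which a difference between genotypes leaves at 0, was -0.41 for Gpx3 and -0.42 for Gpx4, Prdx5 and Txnrd2, placing them between the 0.981 and 1.04 percentiles of measured probes on that measure. Of the other measured members, Prdx3 was at -0.0058, Sod1 at 0.04, and Sod3, Gpx1 and Sod2 at 0.12, 0.14 and 0.18. Gpx4, Prdx5 and Txnrd2 were at least 1.2-fold apart on each array with the same dye higher, 3 of 9 members against 1.87% of all measured probes. No member was at least 1.2-fold apart on each array with the same genotype higher, against 1.61%. Among bright probes these shares were 2 of 5 members against 7.58% for the same dye, and 0 of 5 against 6.59% for the same genotype. The part of dye incorporation or of array in these values was not tested.

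**Figure D3:**
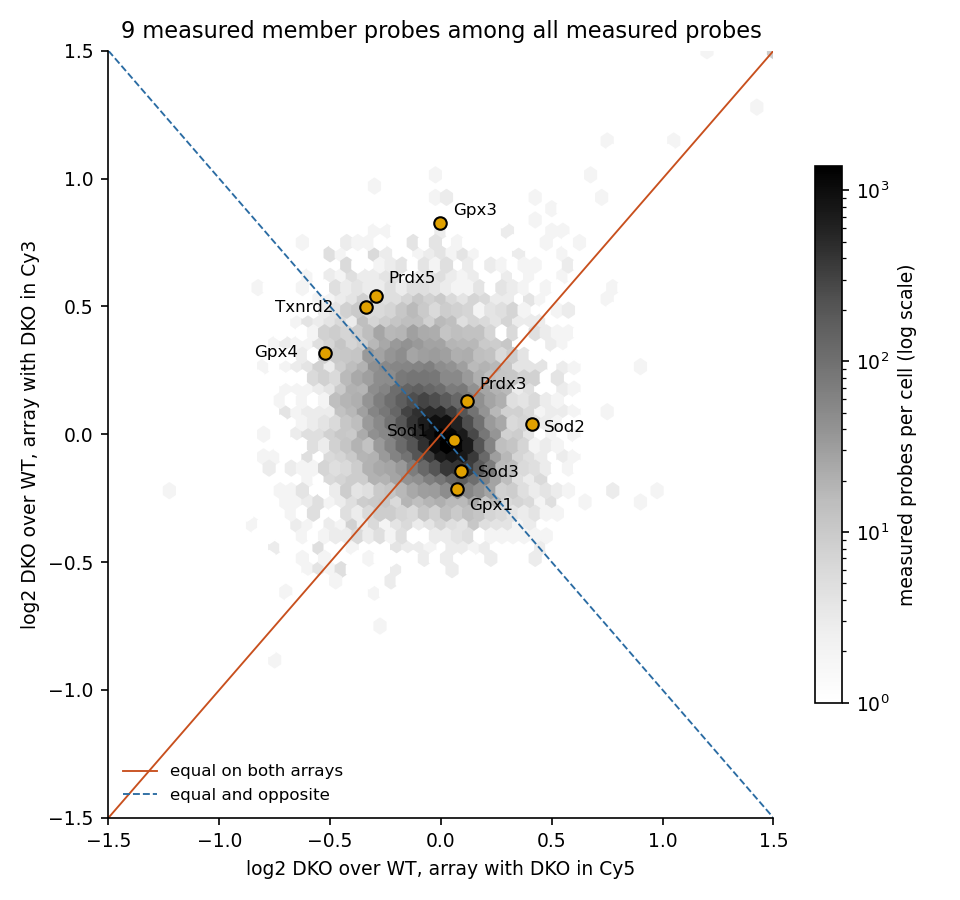
Log2 ratio of DKO over WT on the DKO-Cy5 array (horizontal) against the DKO-Cy3 array (vertical), with the density of all 32424 measured probes in grey on a log scale (ratios beyond 1.5 drawn at the edge) and the 9 measured members as labelled points. Gpx4, Prdx5 and Txnrd2 lie along the dashed line of equal and opposite ratios, Gpx3 lies high at 0.83 on the vertical axis, and Prdx3 lies on the solid line of equal ratios.

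The scanner software's own ratios, made with another background and dye correction, gave a similar picture with an error for each array. One sign differed among the measured members: Gpx3 was just above 0 on the DKO-Cy5 array and so above 0 on both. Gpx3 was 0.0031 ± 0.16 on the DKO-Cy5 array and 0.85 ± 0.17 on the DKO-Cy3 array. Txnrd2 was -0.50 ± 0.19 and 0.76 ± 0.19, Gpx4 was -0.51 ± 0.17 and 0.32 ± 0.16, and Prdx5 was -0.29 ± 0.17 and 0.55 ± 0.17, with the DKO-Cy5 array given first each time. For these 4 genes the arrays were further apart than the errors of both together, by more than for Sod2, at 0.43 ± 0.17 and 0.06 ± 0.16. The software's p-value of a ratio, which covers the measurement error of 1 array, was below 0.01 for 3 of the 9 measured members on the DKO-Cy5 array (Sod2, Gpx4 and Txnrd2), against 4.52% of measured probes. It was below 0.01 for 3 on the DKO-Cy3 array (Gpx3, Prdx5 and Txnrd2), against 5.09%. No member had it below 0.01 on both arrays with the same genotype higher, against 0.916%. Txnrd2 had it on both with the same dye higher, 1 of 9 members against 0.604%. These shares were not taken among bright probes alone. Bright probes made up 5 of the 9 members, against 3218 of the 32424 measured probes.

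**Figure D4:**
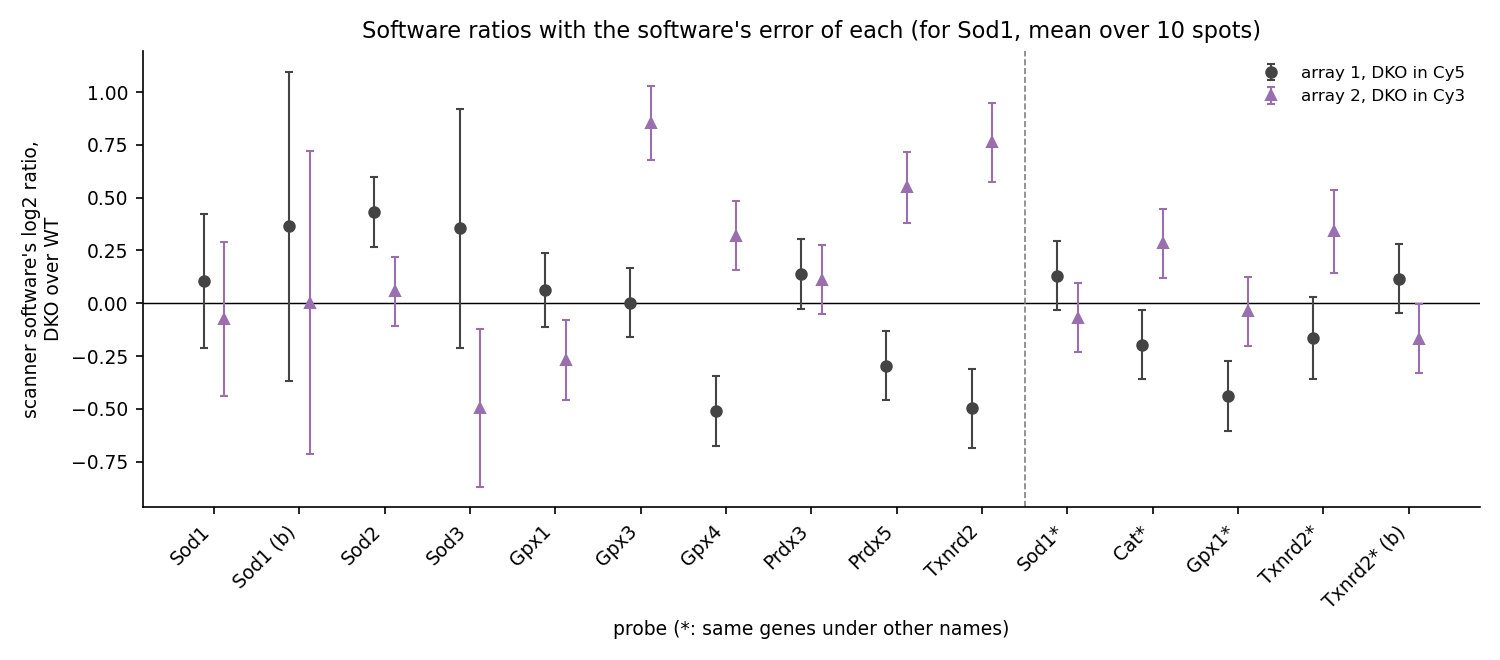
Scanner software's log2 ratio of DKO over WT for each probe, with its error as a bar, on the DKO-Cy5 array (circles) and the DKO-Cy3 array (triangles). The bars of the 2 arrays stay apart for Gpx3, Gpx4, Prdx5 and Txnrd2, narrowly for Sod2, and overlap for the other named probes, and they are widest for the dimmer Sod1 probe and Sod3.

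Of the 5 probes of member genes under other names, looked for after the data were seen, none was called. Catalase, the peroxisomal enzyme that splits hydrogen peroxide, was read by a probe named after a clone of its transcript. It had 1730 and 1450 units in DKO, against 1293 and 1486 in WT, with the genotypes overlapping. Its log2 ratio was -0.20 on the DKO-Cy5 array and 0.30 on the DKO-Cy3 array, a mean of 0.05 ± 0.35. A Sod1 probe built on a complementary DNA of the gene was far above background, at 20012 and 12867 units in DKO, against 11744 and 17248 in WT. That probe's log2 ratio was 0.11 on the DKO-Cy5 array and -0.08 on the DKO-Cy3 array, a mean of 0.01 ± 0.13, so the value for Sod1 does not rest on the dim probes alone.

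A further Gpx1 probe had 4454 and 3948 units in DKO, against 3905 and 5099 in WT. It was below 0 on both arrays, at -0.45 on the DKO-Cy5 array and -0.03 on the DKO-Cy3 array, with a mean log2 ratio of -0.24 ± 0.30, while the probe named Gpx1 averaged -0.07 ± 0.20. The means of the Gpx1 probes thus differed by less than the SD of either. On the DKO-Cy5 array the probes went opposite ways, the probe named Gpx1 being at 0.07. The further probe was the brighter, with a mean log2 intensity of 12.1 against 7.54. Of the 2 further Txnrd2 probes, the first averaged 0.05 ± 0.18 and the second, linked to the gene by its description alone, -0.02 ± 0.15 on the log2 scale. The first read 175 and 149 units in DKO, against 148 and 141 in WT. The second, brighter than the probe named Txnrd2, read 1402 and 836 units in DKO, against 856 and 1147 in WT. The first went the same opposite ways as the probe named Txnrd2 at a smaller size, at -0.07 on the DKO-Cy5 array and 0.18 on the DKO-Cy3 array, and the second the reverse ways, at 0.09 and -0.13. Their Cy5 over Cy3 means were -0.12 and 0.11, against -0.42 for the probe named Txnrd2. With these 5 probes the median over 14 was 0.03 on the log2 scale.

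Genes that work with these enzymes were read the same way, in 8 lists of 65 genes. Here and in the lists below each gene is given by its brightest measured probe. Other probes of a gene could differ from it in either direction. A probe was measured for 60, of which 0 were called, 18 were above 0 on both arrays, 12 were below 0 on both and 30 were of opposite sign. Their median log2 ratio was 0.02. The median was 0.10 for the 3 genes that supply copper or fold Sod1, among them Ccs, its copper chaperone (0.10 ± 0.10). It was -0.07 for the 4 other peroxiredoxins, all of opposite sign on the 2 arrays, with Prdx2 at -0.16 ± 0.56 and Prdx6 at -0.08 ± 0.31. It was 0.11 for 9 of 10 thioredoxin and glutaredoxin genes, with Glrx3 at 0.18 ± 0.03 and Txn1, cytosolic thioredoxin, at -0.13 ± 0.49. Prdx2 and Txn1 thus had SDs well above their means.

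For glutathione synthesis and reduction the median log2 ratio was 0.08 over 7 of 8 genes, with Gss, glutathione synthetase, at 0.33 ± 0.40 and Gclc, the catalytic subunit of the limiting step, at -0.04 ± 0.02. For methionine sulfoxide reductases and sestrins it was -0.01 over 6 of 7 genes. For other selenoproteins and selenium supply it was -0.01 over 15 of 17 genes. Sephs2, which makes the selenium donor for selenocysteine, was at 0.31 ± 0.15, and Selenop, the selenium carrier of plasma, at 0.04 ± 0.36.

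The 5 other glutathione peroxidases had a median of -0.03, with the lowest value of all 8 lists among them. Gpx8, a membrane peroxidase of the endoplasmic reticulum that the file describes as a RIKEN transcript, was at -0.74 on the DKO-Cy5 array and -0.87 on the DKO-Cy3 array. Its mean was -0.80 ± 0.09, or 0.573-fold, short of the 2-fold rule and past the looser rule. In the list of NRF2, the regulator of antioxidant genes, 11 of 11 genes were measured with a median of 0.04. Maff, a small Maf protein that pairs with NRF2, was at -0.70 on the DKO-Cy5 array and -0.68 on the DKO-Cy3 array, a mean of -0.69 ± 0.01, likewise past the looser rule alone. Nfe2l2, which encodes NRF2, was at 0.18 ± 0.27 and its inhibitor Keap1 at 0.05 ± 0.60. In both Gpx8 and Maff the arrays were close together, unlike in the members with the largest ratios on a single array.

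Peroxisome assembly genes, which set the compartment of catalase, had a median of 0.05 over 13 of 16 genes, with Pex14 at 0.24 ± 0.26. Genes of oxidant sources had a median of 0.01 over 8 of 14 genes, with Xdh, xanthine dehydrogenase, at 0.20 ± 0.53 and Aox1 at -0.09 ± 0.14. Pex14 and Xdh each had a further measured probe, at 0.02 for Pex14 and 0.02 for Xdh. In neither list was a gene called.

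The RNA is that of whole tissue, in which fewer cells of a type and less RNA per cell cannot be told apart. Brown adipocyte markers were measured for 10 of 10 genes with a median log2 ratio of 0.47, and Dio2 (1.89 ± 0.32) and Elovl3 (1.02 ± 0.02) were called higher in DKO. Of the 10, 7 were above 0 on both arrays. Cidea, flagged as saturated, was below 0 on both (-0.14 ± 0.02), and 2, Prdm16 and Cox8b, were of opposite sign. Skeletal muscle markers, from a tissue next to the depot, had a median of 0.65 over 11 of 12 genes, 9 of them above 0 on both arrays, and Mb, myoglobin, was called higher, at 0.73 on the DKO-Cy5 array and 1.28 on the DKO-Cy3 array. Erythroid markers had a median of -0.23 over 7 of 10 genes, 3 of them below 0 on both arrays, 2 above 0 on both and 2 of opposite sign. The globins Hba-a1 and Hbb-bt were at -0.46 ± 0.10 and -0.50 ± 0.25. Red cells are rich in Prdx2, catalase and Gpx1. Medians were -0.01 for general adipocyte, 0.02 for macrophage, -0.09 for endothelial and -0.14 for fibroblast markers. The part of other cell types in the members' values was not tested.

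**Figure D5:**
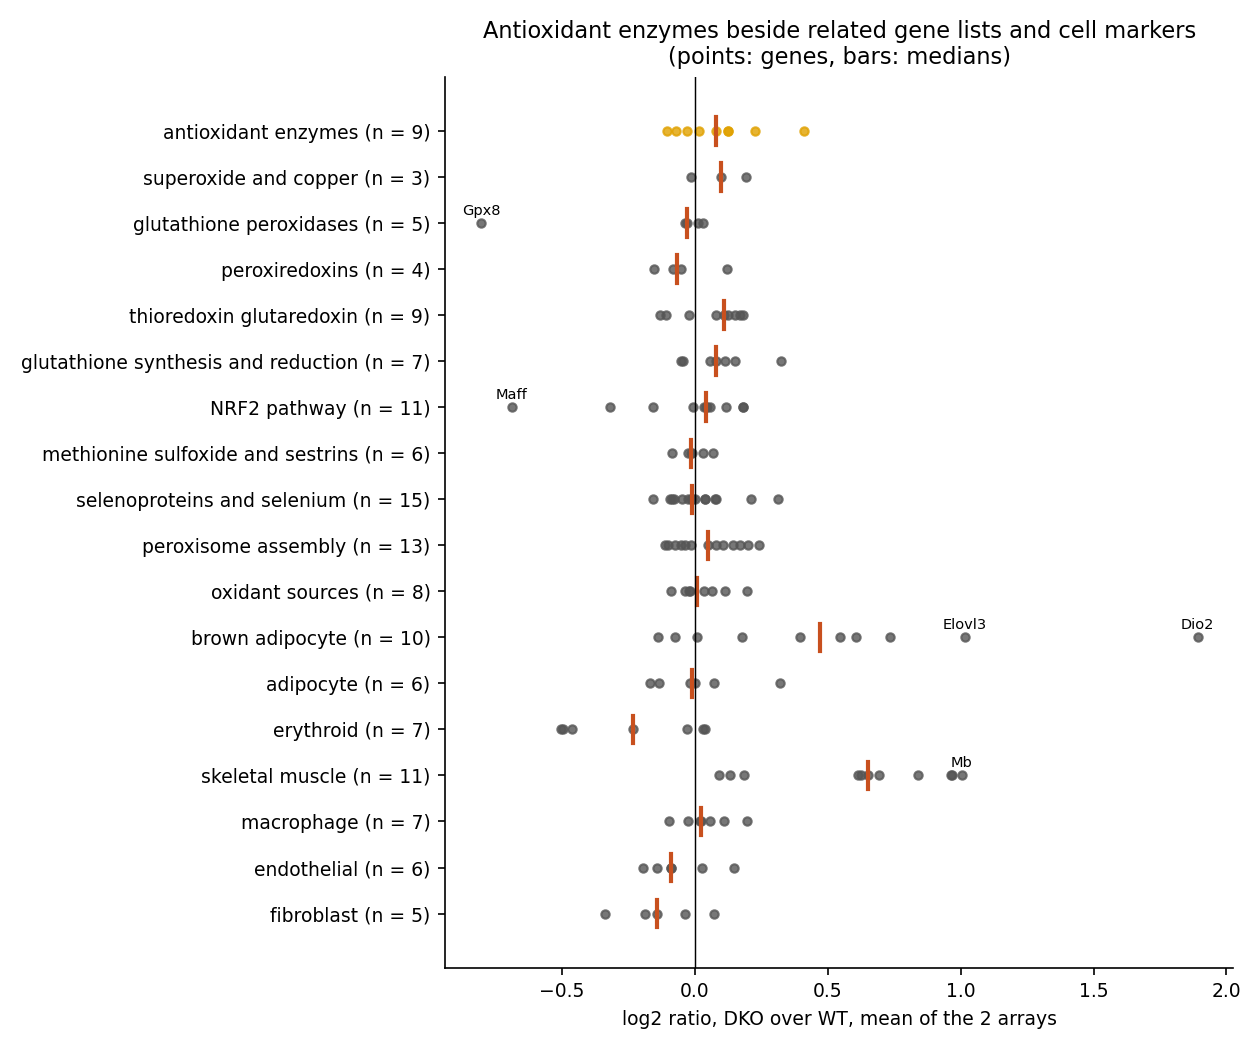
Mean log2 ratio of DKO over WT of each measured gene (points) and the median of each list (orange bars), with the 9 antioxidant enzymes on top, 10 related lists below them and 7 lists of cell markers at the foot; names mark Gpx8, Maff and the called genes. The antioxidant enzymes lie between -0.10 and 0.41 around a median of 0.08, while the medians of brown adipocyte and skeletal muscle markers are 0.47 and 0.65.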

How the data were processed

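The arrays were scanned and extracted with Agilent Feature Extraction 7.5, per the submitters' processing notes. The deposited spot files hold unnormalised mean, median and background signals, on a linear intensity scale, per the file headers. The software's log10 ratio of red over green and its p-value, which follow a spatial and a dye correction, are deposited beside them. The error of each log ratio is a score that the software's error model gave before deposit, per the file headers. Log2 ratios fill the deposited series table, whose columns have a median of 0 and matched the software's red over green ratio within 0.001 for 40962 of 41001 and 41101 of 41141 values. The genome build of the probe design was not stated in the labels or headers.

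Mean signals were corrected with normexp (offset 50) and loess-normalised within arrays, controls at weight 0, in limma 3.58.1 (R 4.3.3). Outlier-flagged spots were left out (171 and 29), saturated ones kept (12 and 14), and spots of a probe averaged. Ratios of the DKO-Cy3 array were multiplied by -1 so that all read DKO over WT. No test was possible at 1 replicate per genotype, and having only 2 arrays limits the precision. Replicate spots and arrays show technical spread only. Named genes were all member probes, Rora, the called or else the 2 brightest genes of each list, and the 2 highest and 2 lowest of each related list, of which some are printed. Members and lists were chosen with earlier results of these data known. Probes were named through a RefSeq table (GRCm38.p6): 11450 by accession, 2296 by symbol, 3110 by synonym, 5331 by its accession lists and 18987 not at all. The level of 1 gene lost in DKO is not reported here. Results were recomputed with another offset, without loess, with loess on detected spots, from median signals, from the software's ratios or the value table, with other flag, dim-probe, probe and size rules, and on each array alone. The calling steps were tested on simulated data. Changes were set there only in probes brighter than those named Sod1, Sod3, Gpx1 and Txnrd2, so that test does not cover these. Tables and plots were made with pandas 2.3.3, numpy 2.4.6 and matplotlib 3.10.9 under Python 3.11.15.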

Additional observations from a re-analysis of the deposited data

How the results depend on the processing

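The count of called members was 0 under each of 16 alternatives, each array alone among them. No paired analysis was possible because each genotype has 1 replicate and both share every array. Under median centring with no loess the members' median log2 ratio was 0.14, against a median of 0.04 for all measured probes there and 0.08 for the members in the chosen processing, and Prdx3 was at 0.26. With each array alone the members' median was 0.07 to 0.08, over the probes measured on that array. Of 45 single-gene values under the 5 settings that change the ratios, 44 moved by less than the SD of the 2 arrays. That SD was 0.59 for each of Gpx3, Gpx4, Prdx5 and Txnrd2, so the count says little about how stable their values are. With both arrays averaged, Gpx1 (-0.10 to 0.03) and Gpx4 (-0.11 to 0.05) crossed 0, both above 0 under median centring. Each array alone gives the ratios printed for it, and the sign of all measured members but Prdx3 and Sod2 depends on which is taken. For Gpx3 this rests on -0.0028 on the DKO-Cy5 array, where the software's ratio was 0.0031. Over all measured probes, the 39 calls (32 higher, 7 lower) became 94 (61 higher, 33 lower) in the software's ratios, 185 (109 higher, 76 lower) under the 1.5-fold rule and 7 (7 higher, 0 lower) at 3-fold. They became 74 (65 higher, 9 lower) and 72 (33 higher, 39 lower) on the DKO-Cy3 and DKO-Cy5 array alone. Signals near background limit the probes named Sod1 and Sod3, whose ratios carry the largest software errors.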
